A study of Homo sapiens with 12 samples.

Results

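The miR-138 mimic was compared directly with the SIN3A siRNA in Calu-3 cells, a human line of airway epithelium. The comparison used 6 of the 12 arrays of the series, chosen by their titles: 3 from cells given the mimic and 3 from cells given the siRNA. The other 6 arrays came from cells given NC1, a scrambled control RNA. All cells, controls included, were transfected with an oligonucleotide and the lipid reagent lipofectamine RNAiMAX. Neither dose nor time of harvest is stated in the sources used here, and the groups may differ in both. The labels name Calu-3 as the cell line, whereas the extraction notes mention primary cultures. Replicates are labelled biological, yet no separate cultures are named, and the p-values thus reflect only how these arrays vary, which may be technical.

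A microRNA guides an Argonaute protein to messenger RNAs that pair with its seed, the short stretch near its 5′ end, and lowers their stability or translation. SIN3A, a scaffold on which histone deacetylases assemble to repress genes, can be lowered either by a siRNA against it or by miR-138, and the series title concerns regulation of CFTR, the anion channel of the airway surface, by microRNAs. A mimic can also reach any other transcript that pairs with its seed, whereas the siRNA was designed against SIN3A. What else the siRNA reached was not measured, and its sequence was not used here. The direct comparison asks what the mimic did beyond the loss of SIN3A, but a difference can come from either treatment. The mature strand is shown because its seed, bases 2 to 8 in capitals, sets which transcripts a mimic of it can pair with.
hsa-miR-138-5p: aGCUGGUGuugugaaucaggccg
This sequence is from RefSeq (GRCh38.p14), where the same strand is cut from 2 hairpins, MIR138-1 at chr3:44114212-44114310 and MIR138-2 at chr16:56858518-56858601, both on the plus strand. Of 2370 mature human miRNA names in that table, 1 had the seed GCUGGUG, which pairs with CACCAGC in a transcript. The sequence of the mimic itself was not used here.

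Levels are the deposited log2 values, 1 probe set for each of 18417 genes, so a difference of 1 is a doubling. The array medians lay between 5.09 and 5.16. The NC1 arrays differed between replicates 1 to 3 (NC1 1-3) and replicates 4 to 6 (NC1 4-6), and the labels do not say which of them were handled with which treatment. The samples are listed as NC1 1-3, SIN3A siRNA, NC1 4-6 and mimic, and the mimic arrays correlated more closely with NC1 4-6 (mean r 0.985 across genes) than with NC1 1-3 (0.979), while the siRNA arrays stood about as close to either (0.980 with NC1 1-3 and 0.978 with NC1 4-6). Within the control parts, NC1 3 and NC1 6 stood furthest from the other arrays of their part. Differences between the mimic and the siRNA are therefore given beside the control difference, NC1 4-6 minus NC1 1-3. For the main results they are also given beside the difference of differences, in which the mimic is taken against NC1 4-6 and the siRNA against NC1 1-3. Treatment and any set of arrays handled together cannot be told apart here.

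Between mimic and siRNA 1078 genes differed (5.85% of all genes), 600 higher (3.26%) and 478 lower (2.60%) with the mimic, at an adjusted p under 0.05 in limma over all genes. The median difference of all genes was -0.01, and 42 of the called genes differed by at least 2-fold. In 1074 of the 1078 called genes the mimic and siRNA arrays did not overlap, which largely follows from a call made on the same arrays. Such a separation was found in 2456 of all genes above (13.3%) and 2404 below (13.1%), and between the control parts in 2218 above (12.0%) and 1909 below (10.4%). NC1 4-6 and NC1 1-3 differed in 1850 genes, more than the treatments did, with 1264 higher (6.86%) and 586 lower (3.18%) in NC1 4-6, or 1057 and 803 after a second quantile normalization. The control difference had the same sign as the direct one in 80.2% of the 1078 called genes, against 61.2% of all genes, and was itself called that way in 386 of them (35.8%). It was called in the opposite direction in 50 and not called in 642. The difference of differences was called in 385 genes (2.09%), higher in 165 (0.896%) and lower in 220 (1.19%). Of the genes called in the direct comparison, 76 higher (0.413% of all genes) and 62 lower (0.337%) were also called there with the same sign. The direct counts depend on how the controls enter the fit. When NC1 was 1 group, a fit that counts the difference between its parts as residual spread, 125 higher and 164 lower genes were called, and without NC1 3 and NC1 6 the counts were 959 and 735. With the 6 treated arrays alone, 851 were called higher and 623 lower. Of 119 genes named here that were called, 88 kept the call whichever array was left out, and 41 kept it with NC1 as 1 group.

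**Figure D1:**
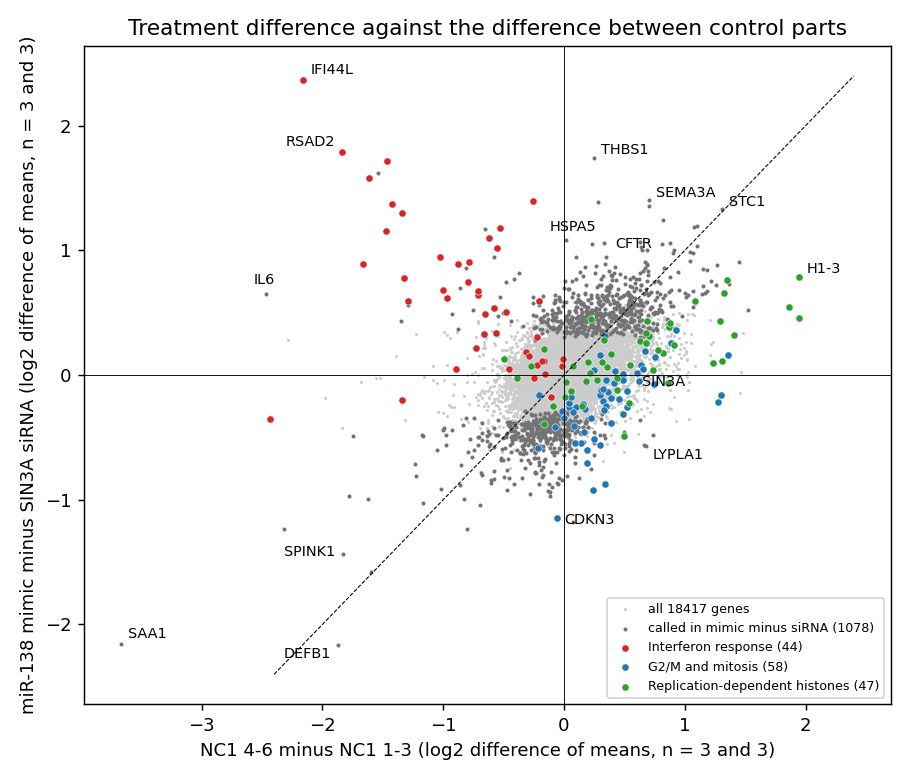
Difference of mimic minus siRNA (vertical, log2) against NC1 4-6 minus NC1 1-3 (horizontal, log2), 1 point per gene, n = 3 arrays in each of the 4 groups; the dashed line marks equal values. Interferon genes such as IFI44L (2.37 against -2.16) lie at the upper left, DEFB1 (-2.17 against -1.87) lies near the dashed line, and THBS1 (1.74 against 0.25) lies near the vertical axis.

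SIN3A did not differ detectably between the treatments. It measured 6.17, 5.88 and 6.03 with the siRNA and 5.93, 6.05 and 6.25 with the mimic. The groups overlapped, and the difference was 0.05 ± 0.12 (SE, adjusted p = 0.900, exact two-sided permutation p = 0.7, where 0.1 is the smallest that 3 against 3 arrays allow). The controls measured 6.79, 6.71 and 6.36 in NC1 1-3 and 7.34, 7.16 and 7.11 in NC1 4-6, all above the 6 treated arrays. NC1 4-6 lay above NC1 1-3 by 0.58 ± 0.12 (SE, adjusted p = 0.00574), so SIN3A was 1.13 below NC1 4-6 with the mimic and 0.59 below NC1 1-3 with the siRNA. The difference of differences, -0.53 ± 0.18 (SE), did not pass the test (adjusted p = 0.159).

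The mimic arrays had 1.93-fold more CFTR than the siRNA arrays. It measured 7.54, 7.62 and 7.52 with the mimic and 6.69, 6.66 and 6.50 with the siRNA, so every mimic array lay above every siRNA array. The difference was 0.95 ± 0.13 (SE, adjusted p = 0.000328, exact two-sided permutation p = 0.1, the smallest possible), and it kept its call with NC1 as 1 group (adjusted p = 0.00932). The controls measured 7.95, 7.93 and 7.46 in NC1 1-3 and 8.27, 8.22 and 7.89 in NC1 4-6. The control parts overlapped, and their difference of 0.35 was not called (adjusted p = 0.107), nor was the difference of differences of 0.60 (adjusted p = 0.120). CFTR lay 0.57 below NC1 4-6 with the mimic and 1.16 below NC1 1-3 with the siRNA. Of 34 measured genes of CFTR and airway ion transport, 2 were higher with the mimic and none lower, with a median of -0.01, and 5 were higher and 1 lower in NC1 4-6. The second was ANO1, the calcium-activated chloride channel, at 0.33 ± 0.09 (SE, control difference 0.05), a call lost without siRNA 1 or 2, NC1 4 or 5, or any mimic array (adjusted p up to 0.177). SCNN1A, a subunit of the epithelial sodium channel, and CLCN3, an intracellular chloride transporter, were not called (-0.42 and 0.38, beside control differences of -0.35 and 0.47).

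Of 30 measured subunits and partners of the SIN3-HDAC complex, none was higher and 1 was lower with the mimic, and the median difference was -0.01, while 8 were higher and 3 lower in NC1 4-6. That gene was SAP30L, which resembles the SIN3-associated protein SAP30. It measured 5.62, 5.71 and 5.66 with the mimic and 6.18, 6.34 and 6.45 with the siRNA. Those arrays did not overlap (difference -0.66 ± 0.12, SE, adjusted p = 0.00266), but the control parts differed nearly as much (-0.52, adjusted p = 0.00785) and the difference of differences was -0.14. The chromatin-binding subunits MORF4L1 and MORF4L2 and the histone chaperone RBBP4 did not pass the test, at 0.33, 0.35 and 0.47 beside control differences of 0.67, 0.32 and 0.69.

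Genes that interferon induces were the largest group that was higher with the mimic, and in the controls they differed the other way. Interferons are secreted when a cell senses viral or other double-stranded RNA, and they switch on effectors that block translation, degrade RNA or trap viral particles. Of 44 measured members, 25 were higher with the mimic and none lower (median difference 0.59), where 3.26% of all genes were higher. In the controls 31 were lower in NC1 4-6 and none higher (median -0.69), where 3.18% of all genes were lower. The difference of differences was called higher in 32, with a median of 1.37, where 0.896% of all genes were higher. The mean level of the 44 genes was 5.92 to 6.05 on the mimic arrays, 5.33 to 5.35 on the siRNA arrays, 5.82 to 5.95 on NC1 1-3 and 5.06 to 5.11 on NC1 4-6. The mimic arrays thus overlapped NC1 1-3, and NC1 4-6 was lowest. The number called higher was 6 with NC1 as 1 group and 28 without NC1 3 and NC1 6. With the control parts exchanged, 2 members were called higher and 6 lower and the median difference of differences was -0.07, so its size rests on which NC1 arrays belong to which treatment.

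IFI44L, an interferon-induced gene that restrains viruses, rose furthest of all genes. It measured 7.07, 7.54 and 7.49 with the mimic and 4.81, 5.36 and 4.82 with the siRNA. In the controls it was 7.38, 7.13 and 6.80 in NC1 1-3 and 4.66, 5.02 and 5.15 in NC1 4-6. The mimic arrays overlapped NC1 1-3 and the siRNA arrays overlapped NC1 4-6, and the former all lay above the latter. Mimic minus siRNA was 2.37 ± 0.18 (SE, adjusted p = 1.02e-06), the control difference -2.16 and the difference of differences 4.53.

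RSAD2, or viperin, which makes a chain-terminating nucleotide, measured 6.59, 6.62 and 6.87 with the mimic and 4.81, 4.76 and 5.14 with the siRNA. It was 5.98, 5.59 and 5.85 in NC1 1-3 and 3.85, 4.16 and 3.90 in NC1 4-6. Here the 4 groups were fully separated, in the order NC1 4-6, siRNA, NC1 1-3 and mimic. The direct difference was 1.79 ± 0.13 (SE, adjusted p = 9.99e-07) and the control difference -1.84. IFIT1, which binds foreign RNA caps, had its group means in the same order and differed by 1.58 ± 0.12 (SE, control difference -1.62). IFI44, DDX60, MX1 and OAS2 differed by 1.72, 1.62, 1.38 and 1.30, beside control differences of -1.46, -1.54, -1.43 and -1.34. DDX60 is a helicase of antiviral sensing, MX1 a GTPase that blocks viral entry into the nucleus, and OAS2 a synthetase of the signal that activates RNase L. IFIT2 and OAS1 differed by 1.16 and 0.89, beside control differences of -1.47 and -1.66.

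EIF2AK2, the kinase PKR that halts translation when it binds double-stranded RNA, differed from these in its controls. It had a mean of 8.20 ± 0.18 (SD, n = 3) with the mimic and measured 6.70, 6.87 and 6.83 with the siRNA, 7.71, 7.61 and 7.18 in NC1 1-3 and 7.47, 7.29 and 6.97 in NC1 4-6. All 3 mimic arrays lay above the other arrays and the siRNA arrays below all others, while the control parts overlapped. Mimic minus siRNA was 1.40 ± 0.15 (SE, adjusted p = 3.73e-05), the control difference -0.26 was not called, and the direct call held with NC1 as 1 group (adjusted p = 0.00112). Some members, picked out here after their values were seen, did not differ between the treatments. The ubiquitin-like modifier ISG15 and the membrane proteins IFI6 and IFI27 differed by 0.05, -0.20 and -0.35, none called, although each was lower in NC1 4-6 (-0.90, -1.34 and -2.43, all called). The genes of the interferons themselves were not called either, with IFNB1 at -0.02 and IFNL1 at 0.01, and neither control difference was called.

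**Figure D2:**
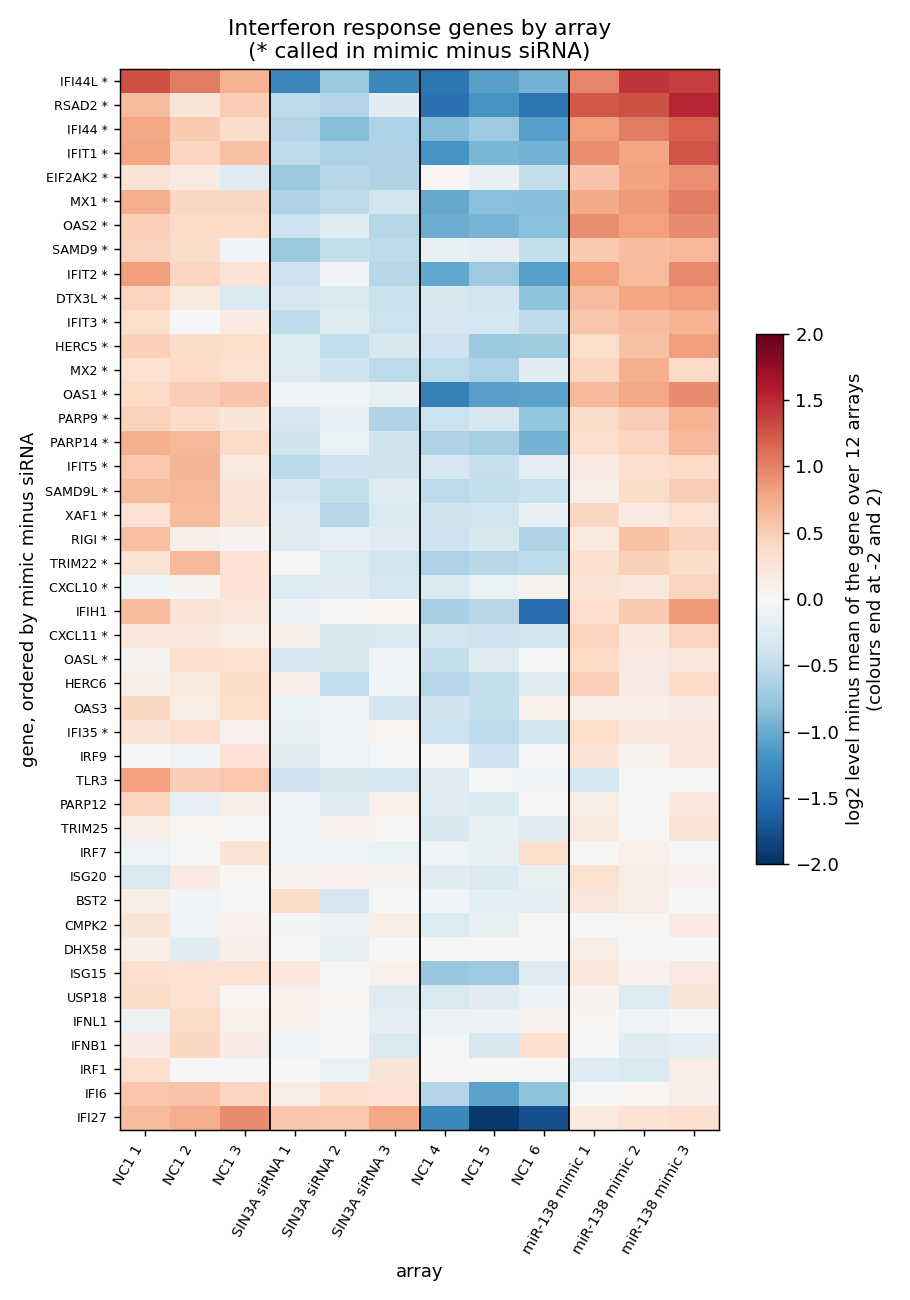
Levels of the 44 interferon response genes (rows, ordered by mimic minus siRNA) on the 12 arrays (columns), as the log2 level minus the mean of that gene over 12 arrays; red is above and blue below that mean, and asterisks mark the 25 genes called higher with the mimic. NC1 1-3 and the mimic arrays are mostly red and the siRNA and NC1 4-6 arrays mostly blue in the upper rows.

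Promoters of interferon-induced genes often hold the interferon-stimulated response element, to which the factors downstream of interferon receptors bind. The 250 bases upstream of each RefSeq start (GRCh38.p14) were searched on both strands for GAAA, any 2 bases and GAAA again. The motif occurred upstream of 3.02% of 35116 RefSeq starts and in 24 of 46 starts of the 36 interferon members found in that table (52.2%). It occurred in 14 of 27 starts of members called higher with the mimic (51.9%, 20 genes) and in 10 of 19 starts of the other members (52.6%, 16 genes), so the shares were alike. The windows of IFIT1 and IFI44L are shown, with the motif in capitals, because each holds it in 2 copies and both genes were among the 12 largest rises.
IFIT1, chr10:89392373-89392622, plus strand: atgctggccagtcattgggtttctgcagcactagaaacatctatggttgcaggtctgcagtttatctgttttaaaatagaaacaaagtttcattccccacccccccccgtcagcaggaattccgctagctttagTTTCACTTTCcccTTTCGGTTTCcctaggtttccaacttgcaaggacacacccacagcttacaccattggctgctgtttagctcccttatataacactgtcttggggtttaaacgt
IFI44L, chr1:78620198-78620447, plus strand: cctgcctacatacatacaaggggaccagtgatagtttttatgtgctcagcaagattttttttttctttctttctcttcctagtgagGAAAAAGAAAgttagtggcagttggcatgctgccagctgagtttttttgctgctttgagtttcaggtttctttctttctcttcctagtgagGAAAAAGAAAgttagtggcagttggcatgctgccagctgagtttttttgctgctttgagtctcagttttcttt
In IFIT1 the copies read on the opposite strand and began 116 and 103 bases before the start. In IFI44L they read on the strand of the gene and began 164 and 73 bases before it. A match describes the letters only and no binding was measured.

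Most inflammatory and defence genes named below fell along with the control difference, while IL6 and CXCL8 differed against it. Of 33 measured genes of NF-kB and inflammatory cytokines, 5 were higher and 4 lower with the mimic, with a median of 0.03, and in the controls 1 was higher and 10 lower in NC1 4-6. IL6, a cytokine of the acute-phase response, measured 7.27, 7.05 and 7.12 with the mimic, 6.43, 6.42 and 6.63 with the siRNA, 7.74, 7.51 and 7.03 in NC1 1-3 and 4.93, 4.73 and 5.23 in NC1 4-6. The 3 mimic arrays lay above the siRNA arrays and far above NC1 4-6, but they overlapped NC1 1-3. The direct difference was 0.65 ± 0.15 (SE, adjusted p = 0.0191), a call lost without siRNA 1 or 2 or mimic 1 or 3 (adjusted p up to 0.0915). With NC1 as 1 group the IL6 call was also lost (limma adjusted p = 0.766). The control difference was -2.46. The neutrophil chemokine CXCL8, named after its values were seen, differed by 0.43 beside a control difference of -1.35.

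SAA1, a serum amyloid A acute-phase protein, was lower with the mimic and far lower in NC1 4-6. It measured 5.64, 5.37 and 5.77 with the mimic, 7.76, 7.71 and 7.79 with the siRNA, 8.40, 8.39 and 8.52 in NC1 1-3 and 5.13, 4.68 and 4.50 in NC1 4-6. Each treatment stood near 1 part of the control and none of the 4 groups overlapped. Mimic minus siRNA was -2.16 ± 0.14 (SE, adjusted p = 2.01e-07) and the control difference -3.67, so the difference of differences had the opposite sign, 1.51. SAA2 followed the same order, with -1.23 beside -2.32. The complement component C3 fell by 0.97 beside a control difference of -1.78, and the mitochondrial superoxide dismutase SOD2 by 0.56 beside -0.98.

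DEFB1, the antimicrobial beta-defensin of epithelia, fell furthest of all genes. It measured 5.80, 5.88 and 5.95 with the mimic, 7.85, 8.15 and 8.12 with the siRNA, 7.61, 7.55 and 7.76 in NC1 1-3 and 5.87, 5.79 and 5.66 in NC1 4-6. The mimic arrays overlapped NC1 4-6, and the siRNA arrays lay just above NC1 1-3. The direct difference was -2.17 ± 0.10 (SE, adjusted p = 6.97e-09) and the control difference -1.87, which left -0.30 (SE 0.14, adjusted p = 0.394) as the difference of differences. In such bulk samples fewer cells that make a transcript and less of it per cell cannot be told apart. The elastase inhibitors PI3 and SLPI fell by 1.58 and 1.00 beside control differences of -1.60 and -1.62, and the trypsin inhibitor SPINK1 by 1.43 beside -1.83. LXN, an inhibitor of carboxypeptidases, fell by 1.23 beside -0.80, and the interferon-gamma-induced GTPase GBP2 by 1.03 beside -1.17. Apart from SLPI (0.63, adjusted p = 0.0298), none of these was called in the difference of differences. A second probe set of GBP2, at a mean level of 5.47, differed by -0.395 between the treatments. The zinc finger gene ZNF587 fell by 1.00 beside -0.83.

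**Figure D3:**
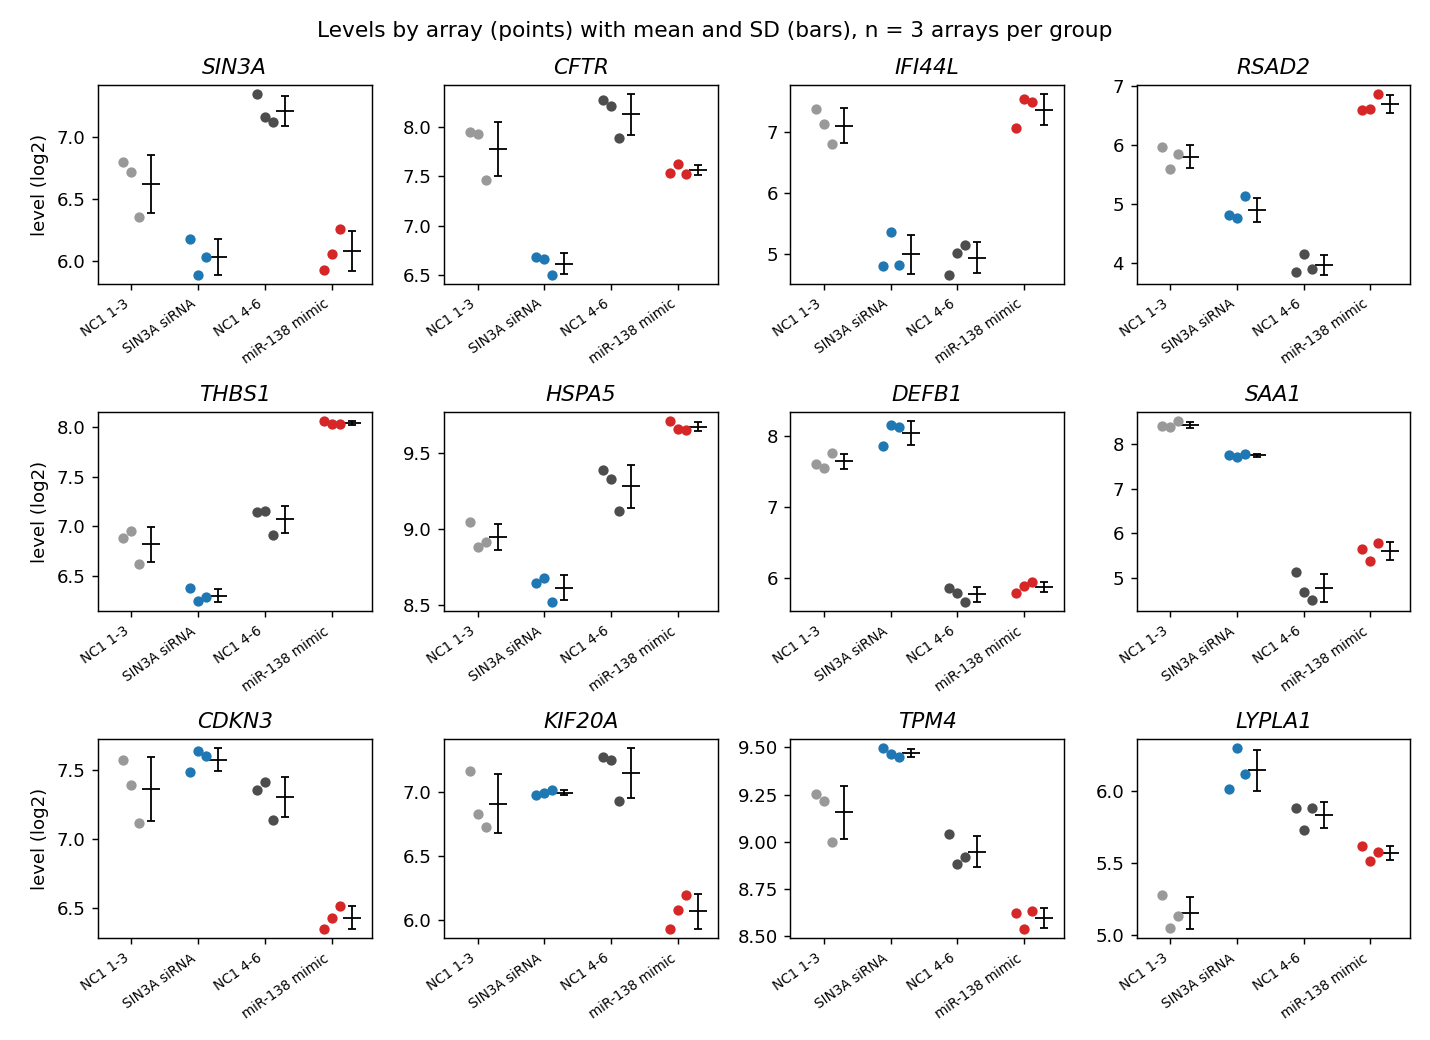
Log2 levels of 12 genes on each array (points, n = 3 per group) with the group mean and SD (bars), for NC1 1-3, SIN3A siRNA, NC1 4-6 and miR-138 mimic; each panel has its own axis, which does not start at 0. SIN3A overlaps between the treatments, CFTR, THBS1 and HSPA5 are higher with the mimic, DEFB1 and SAA1 differ along the control parts, and CDKN3 and KIF20A are lowest with the mimic.

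THBS1 had the lowest adjusted p of the genes that rose with the mimic. It encodes thrombospondin-1, a secreted matrix protein that can activate latent TGF-beta. It measured 8.06, 8.03 and 8.03 with the mimic, 6.37, 6.24 and 6.29 with the siRNA, 6.88, 6.96 and 6.62 in NC1 1-3 and 7.14, 7.15 and 6.91 in NC1 4-6. The mimic arrays lay above and the siRNA arrays below all 6 controls, and the control parts overlapped. Mimic minus siRNA was 1.74 ± 0.10 (SE, adjusted p = 9.0e-08), the control difference 0.25 (adjusted p = 0.142) and the difference of differences 1.49 (adjusted p = 1.33e-05). Of 50 measured genes of TGF-beta, activin and matrix, 10 were higher and 2 lower with the mimic, with a median of 0.05, and 6 were higher and 3 lower in NC1 4-6. Among them the protease MMP7 rose by 0.63 and the protease inhibitor SERPINE2 by 0.55, while the TGF-beta signal carrier SMAD3 fell by 0.68. Their control differences of 0.48, 0.65 and -0.52 had the same sign and were called.

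Other genes among the 12 largest rises were APOL1, SEMA3A and STC1. APOL1 is a lipid-binding protein of innate immunity. It measured 9.43, 9.27 and 9.24 with the mimic and 7.84, 8.09 and 7.85 with the siRNA, a difference of 1.39 ± 0.10 (SE, adjusted p = 1.02e-06). Its control difference of 0.28 was not called (adjusted p = 0.0963), and its mimic arrays lay above every control array. SEMA3A, a secreted guidance cue, rose by 1.40 beside a control difference of 0.70 and a difference of differences of 0.70 (adjusted p = 0.0973). STC1, the secreted hormone stanniocalcin-1, measured 7.37, 7.21 and 7.53 with the mimic, 5.95, 6.02 and 6.14 with the siRNA, 6.43, 6.34 and 6.44 in NC1 1-3 and 7.69, 7.78 and 7.66 in NC1 4-6. Its direct difference of 1.33 ± 0.10 (SE) was matched by a control difference of 1.31, and the difference of differences was 0.02.

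Part of the genes of the later cell cycle were lower with the mimic. G2/M genes build the spindle, separate chromosomes and divide the cell. Of 58 measured members 14 were lower and none higher, with a median of -0.20, whereas in the controls 21 were higher in NC1 4-6 and none lower, with a median of 0.32. The difference of differences was called lower in 18, with a median of -0.56. Against NC1 4-6 the mimic lowered 34 and raised none, where 1.89% of all genes were lower, 1.59% higher and 3.49% called either way. Against NC1 1-3 the siRNA raised 2 and lowered 1, where 3.66% of all genes were higher, 2.04% lower and 5.70% called either way. The mean level of the 58 genes was 6.77 to 6.91 on the mimic arrays and 7.02 to 7.10 on the siRNA arrays. It was 6.81 to 7.18 on NC1 1-3 and 7.19 to 7.48 on NC1 4-6. The mimic arrays thus overlapped NC1 1-3, and the counts that set the mimic against NC1 4-6 rest on that choice of control. In the direct comparison the number lower was 9 with NC1 as 1 group. Without NC1 3 and NC1 6, 18 were lower and 3 higher. With single arrays left out the number lower ran from 8 to 16.

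CDKN3, a phosphatase of cyclin-dependent kinases, measured 6.35, 6.43 and 6.52 with the mimic, 7.48, 7.64 and 7.60 with the siRNA, 7.58, 7.39 and 7.12 in NC1 1-3 and 7.36, 7.42 and 7.14 in NC1 4-6. The mimic arrays stood alone below the other 9. The direct difference was -1.15 ± 0.11 (SE, adjusted p = 2.67e-05) beside a control difference of -0.06, and the difference of differences was -1.09 (adjusted p = 0.00116). KIF20A, a kinesin of cytokinesis, measured 5.93, 6.08 and 6.20 with the mimic and 6.97, 6.99 and 7.01 with the siRNA. Its mimic arrays also lay below all others (direct -0.92 ± 0.12, SE, control 0.24, difference of differences -1.16). BIRC5, or survivin, a subunit of the chromosomal passenger complex, fell by 0.71 beside 0.19, and CENPE, a kinesin of the kinetochore, by 0.87 beside 0.34. A second probe set of BIRC5, at a mean level of 6.46, differed by -0.32 between the treatments. The securin PTTG1 fell by 0.58 beside -0.21. The mitotic kinase PBK and the cell-cycle gene PRR11 fell by 0.56 and 0.36 beside control differences of 0.67 and 0.63, and both calls were lost without NC1 2 or 4, siRNA 2 or 3, or any mimic array (adjusted p up to 0.166 and 0.191). The PBK call was also lost without siRNA 1, and that of PRR11 without NC1 5.

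Of 58 measured genes that act from G1/S through replication, 7 were higher and 3 lower with the mimic, with a median of 0.05, while 29 were higher in NC1 4-6 and none lower, with a median of 0.35. Against NC1 4-6 the mimic raised 1 and lowered 24 (median -0.32), where 1.59% of all genes were higher and 1.89% lower. In the difference of differences none was higher and 11 were lower (median -0.30), where 0.896% of all genes were higher and 1.19% lower. The mean level of the 58 genes was 6.01 to 6.05 on the mimic arrays, within the 5.99 to 6.14 of NC1 1-3. It was 6.38 to 6.48 on NC1 4-6 and averaged 5.93 on the siRNA arrays. The counts against NC1 4-6 thus rest on that choice of control. The origin-licensing factor CDC6 rose by 0.65 beside a control difference of 0.66, the polymerase subunit POLA1 by 0.66 beside 0.77, the chromatin remodeller HELLS by 0.64 beside 1.03 and the origin subunit ORC6 by 0.76 beside 0.43. PCNA, the sliding clamp of DNA polymerases, went the other way. It measured 5.17, 5.05 and 5.14 with the mimic, 5.64, 5.61 and 5.55 with the siRNA, 6.23, 5.88 and 5.71 in NC1 1-3 and 6.84, 6.61 and 6.58 in NC1 4-6. It was lowest with the mimic and highest in NC1 4-6, with no overlap among the groups. The direct difference of -0.48 ± 0.12 (SE, adjusted p = 0.0220) was lost without any 1 of the 6 treated arrays (adjusted p up to 0.0961), and the difference of differences was -1.22 (adjusted p = 0.000492).

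Of 47 measured replication-dependent histone genes, which supply new chromatin in S phase, 6 were higher with the mimic and none lower, with a median of 0.12. In NC1 4-6, 29 were higher and 2 lower, with a median of 0.53. H1-3, a linker histone, measured 6.04, 6.24 and 6.16 with the mimic, 5.12, 5.25 and 5.72 with the siRNA, 5.52, 5.32 and 5.48 in NC1 1-3 and 7.58, 7.39 and 7.20 in NC1 4-6. The mimic arrays lay between the siRNA arrays and NC1 4-6, and the siRNA arrays overlapped NC1 1-3. Its direct difference of 0.79 ± 0.14 (SE, adjusted p = 0.00256) stood beside a control difference of 1.95, so the difference of differences was -1.16 (adjusted p = 0.00373). H2AC6, H1-4 and H4C3 rose by 0.76, 0.66 and 0.59 beside 1.35, 1.33 and 1.08. In the difference of differences 13 histone genes were lower and 1 higher, where 1.19% of all genes were lower and 0.896% higher. The mean level of the 47 genes was 5.39 to 5.42 on the mimic arrays, above the 5.27 to 5.36 of NC1 1-3. On NC1 4-6 it was at least 5.87, so the counts in the difference of differences rest on that choice of control. With NC1 as 1 group no histone gene was called in the direct comparison, and without NC1 3 and NC1 6 the count was 9.

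Chaperones of the endoplasmic reticulum and the cytosol help CFTR and other proteins to fold. Of 33 measured members 10 were higher and 2 lower with the mimic, with a median of 0.09, and 11 were higher and 3 lower in NC1 4-6. In the difference of differences 1 was higher and 1 lower. HSPA5, or BiP, the main HSP70 of that compartment, measured 9.71, 9.66 and 9.65 with the mimic, 8.65, 8.67 and 8.52 with the siRNA, 9.04, 8.88 and 8.92 in NC1 1-3 and 9.39, 9.33 and 9.12 in NC1 4-6. The mimic arrays lay above and the siRNA arrays below every control array. Mimic minus siRNA was 1.06 ± 0.09 (SE, adjusted p = 5.75e-06), the control difference 0.33 (adjusted p = 0.0311) and the difference of differences 0.73 (adjusted p = 0.00677).

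CANX, calnexin, which holds glycoproteins such as CFTR while they fold, measured 10.15, 10.20 and 10.18 with the mimic and 9.31, 9.34 and 9.36 with the siRNA. Its mimic arrays fell within the range of NC1 4-6, and its siRNA arrays lay below all controls (direct 0.84 ± 0.09, SE, control 0.37). DNAJC10, a disulfide reductase of that compartment, rose by 1.00 beside 0.64, and the cytosolic chaperone HSP90AB1 by 0.74 beside 0.74. When NC1 was 1 group, 4 of these chaperones were called higher, and without NC1 3 and NC1 6 the counts were 12 higher and 3 lower.

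Of 29 measured genes of the unfolded protein and integrated stress response, which raises chaperones and amino acid supply under stress, 6 were higher with the mimic and none lower, with a median of 0.10. In NC1 4-6, 4 were higher and 7 lower. SLC7A11, the cystine transporter, rose by 1.02 ± 0.09 (SE, adjusted p = 8.19e-06) beside a control difference of 0.64, and its partner SLC3A2 by 0.49 beside -0.14, which was not called. The chaperone HYOU1 rose by 0.61 beside 0.54. PPP1R15A, or GADD34, which restarts translation after stress, rose by 0.48 beside -0.54 and was called in the difference of differences (1.02, adjusted p = 0.000467). Of 28 genes of ER-associated degradation, which clears misfolded CFTR, 1 was higher (SEL1L, an adaptor of a ubiquitin ligase, 0.57 beside 0.32) and 1 lower (AUP1, -0.30 beside -0.16), with a median of 0.10, and 5 were higher and none lower in NC1 4-6. The AUP1 call was lost without NC1 2, 4 or 5, any siRNA array, or mimic 1 or 2 (adjusted p up to 0.202).

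Of 48 measured genes of the secretory pathway and CFTR trafficking, 2 were higher and 6 lower with the mimic, with a median of -0.11, and 4 were higher and 2 lower in NC1 4-6. STX8, a SNARE of late endosomes, fell by 0.67 beside a control difference of -0.47. RAB4A, a GTPase of rapid recycling to the surface, measured 5.05, 5.05 and 5.18 with the mimic and 5.52, 5.68 and 5.71 with the siRNA, and the mimic arrays lay below every control array. Its difference was -0.54 ± 0.09 (SE, adjusted p = 0.00245) beside a control difference of 0.14, and its difference of differences of -0.68 was called (adjusted p = 0.0113). SNX10, a sorting nexin of endosomes, rose by 1.05 beside 0.81, and MCFD2, part of a cargo receptor that leaves the endoplasmic reticulum, by 0.53 beside 0.79. The MCFD2 call was lost without siRNA 2 (adjusted p = 0.0523). With NC1 as 1 group none of these genes was called higher and 3 were called lower.

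Of 37 measured genes of autophagy and the lysosome, none was higher and 5 were lower with the mimic, with a median of -0.10, and 3 were higher and 4 lower in NC1 4-6. The cholesterol carrier NPC2 fell by 0.48 ± 0.09 (SE, adjusted p = 0.00299) beside a control difference of -0.02, and the lysosomal galactosidase GLA by 0.51 beside -0.50. The autophagy genes WIPI2 and GABARAP fell by 0.47 and 0.31 beside -0.22 and 0.31. The calls of GLA, WIPI2 and GABARAP were lost without siRNA 3 or mimic 2. That of GLA was also lost without mimic 3, that of WIPI2 without siRNA 2 or mimic 1, and that of GABARAP without any treated array (adjusted p up to 0.0958, 0.104 and 0.101). NPC2 was the 1 member called with NC1 as 1 group. Of 28 proteasome subunits 3 were higher and 3 lower, with a median of 0.04, beside 6 higher and none lower in NC1 4-6, and none was called with NC1 as 1 group. Their calls were near the threshold, with PSMD8 and PSMB3 at -0.35 and -0.34 (controls -0.09 and -0.12) and PSMB2 and PSMA2 at 0.33 and 0.35 (controls 0.19 and 0.30), and each was lost without siRNA 2 or 3 or mimic 2 or 3 (adjusted p up to 0.163). PSMB3 was also lost without mimic 1, and PSMB2 and PSMA2 without siRNA 1, mimic 1, or NC1 4 or 5.

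Nuclear genes of oxidative phosphorylation, the chain of mitochondrial complexes that makes ATP, were lower with the mimic in part. Of 46 measured members 13 were lower and none higher, with a median of -0.17. In the controls 4 were higher and 3 lower in NC1 4-6, with a median of 0.04. Against NC1 1-3 the siRNA raised 12 and lowered none, where 3.66% of all genes were higher and 2.04% lower. Against NC1 4-6 limma called none with the mimic (3 at an unadjusted p under 0.05), where 1.59% of all genes were higher and 1.89% lower. The mean level of the 46 genes was 7.63 to 7.66 on the mimic arrays, 7.82 to 7.91 on the siRNA arrays, 7.51 to 7.67 on NC1 1-3 and 7.59 to 7.68 on NC1 4-6. The siRNA arrays thus stood above the other 9 and the mimic arrays lay within the controls. The number lower was 8 with NC1 as 1 group, 19 without NC1 3 and NC1 6 (1 higher), and 9 to 17 with single arrays left out.

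UQCC5, an assembly factor of complex III, measured 6.09, 6.16 and 6.11 with the mimic, 6.97, 7.17 and 7.13 with the siRNA, 6.33, 6.26 and 5.87 in NC1 1-3 and 6.17, 6.18 and 5.75 in NC1 4-6. The siRNA arrays stood alone above the rest. Its difference was -0.97 ± 0.13 (SE, adjusted p = 0.000289) beside a control difference of -0.12, and the difference of differences was -0.85 (adjusted p = 0.0226). NDUFA2 and NDUFB3, subunits of complex I, fell by 0.92 and 0.70 beside -0.47 and -0.21, and COX5B, a subunit of complex IV, by 0.61 beside -0.06. NDUFA3, another complex I subunit among the 12 largest falls, fell by 1.04 beside a control difference of -0.69. It was 9.06 to 9.16 on the mimic arrays and 9.14 to 9.37 in NC1 4-6, ranges that overlap.

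**Figure D4:**
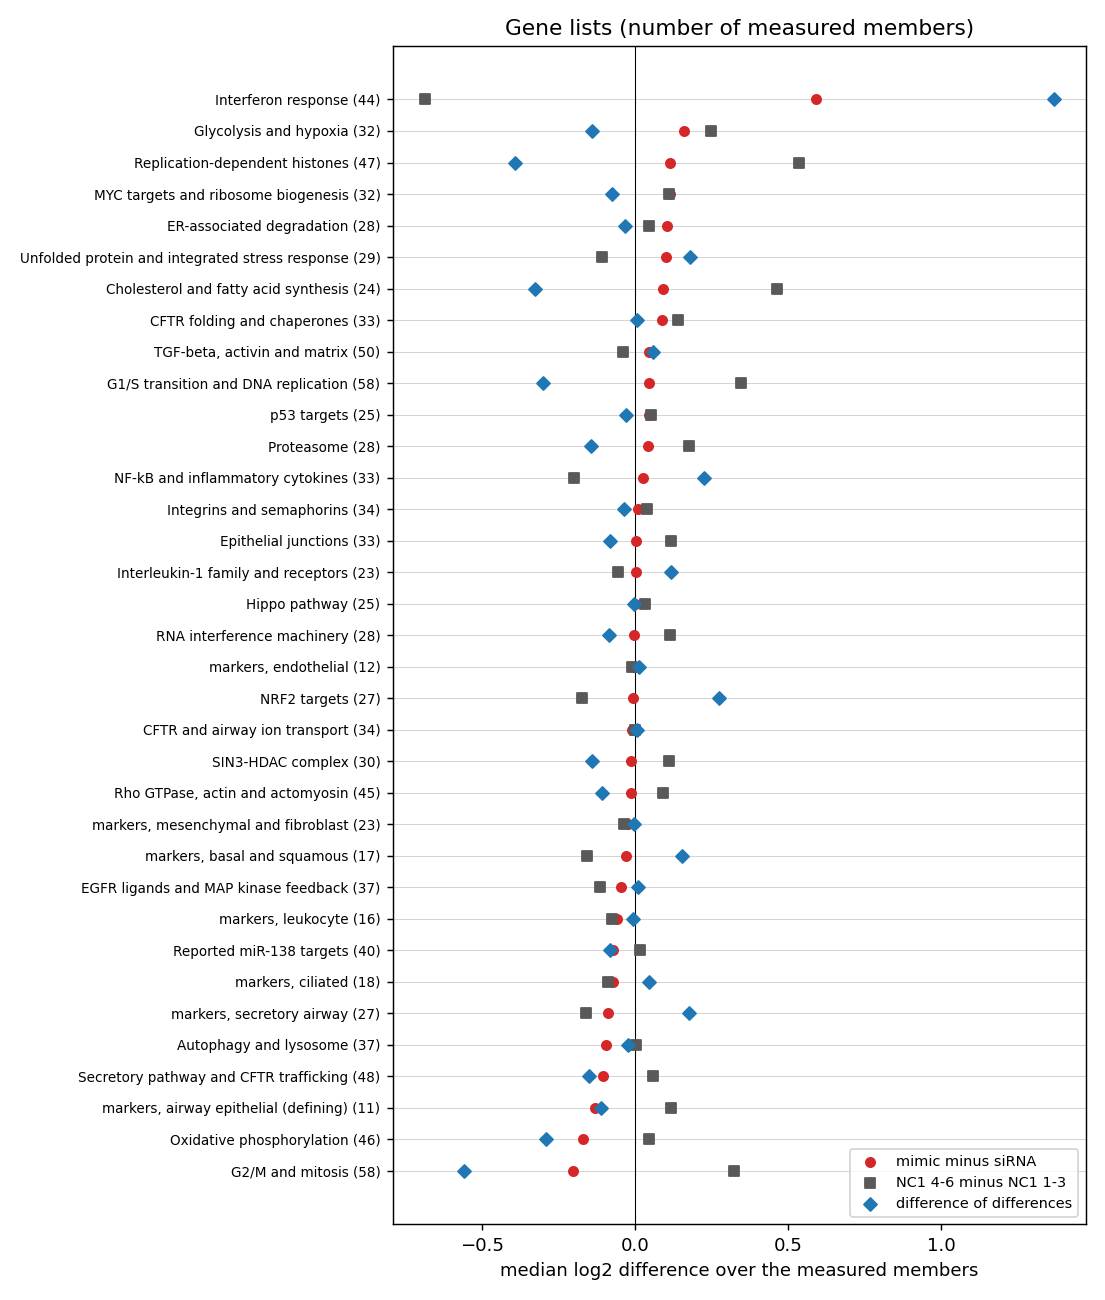
Median log2 difference over the measured members of 35 gene lists (number of members in brackets) for mimic minus siRNA (circles), NC1 4-6 minus NC1 1-3 (squares) and the difference of differences (diamonds). The interferon list has medians of 0.59, -0.69 and 1.37, the G2/M list -0.20, 0.32 and -0.56, and the oxidative phosphorylation list -0.17, 0.04 and -0.29.

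Of 40 measured genes reported as miR-138 targets, 2 were higher and 6 lower with the mimic than with the siRNA, with a median of -0.07, and in the controls 6 were higher and 4 lower in NC1 4-6. Against NC1 4-6 the mimic raised 1 and lowered 7, where 1.59% of all genes were higher and 1.89% lower. In the difference of differences none was higher and 4 were lower (median -0.08), where 0.896% of all genes were higher and 1.19% lower. The mean level of the 40 genes was 6.14 with the mimic, 6.21 with the siRNA, 6.19 in NC1 1-3 and 6.25 in NC1 4-6. As NC1 4-6 was highest, these counts rest on that choice of control. LYPLA1, a depalmitoylating enzyme, measured 5.62, 5.52 and 5.58 with the mimic, 6.02, 6.30 and 6.12 with the siRNA, 5.28, 5.05 and 5.14 in NC1 1-3 and 5.89, 5.73 and 5.89 in NC1 4-6. The 4 groups were separated, with NC1 1-3 lowest and the siRNA highest. The direct difference was -0.57 ± 0.10 (SE, adjusted p = 0.00203), while the mimic lay 0.26 below NC1 4-6 and the siRNA 0.99 above NC1 1-3. Most of the difference of differences of -1.25 (adjusted p = 5.38e-05) thus came from the siRNA arrays and their control.

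PDPK1, a kinase that activates AKT, fell by 0.48 beside a control difference of -0.56, and its call was lost when its 4 probe sets were averaged. The GTPase RHOC and the hypoxia factor HIF1A fell by 0.44 and 0.55 beside -0.07 and -0.23, and both calls were lost without siRNA 2 or mimic 1 or 2 (adjusted p up to 0.0949 and 0.0983). The RHOC call was also lost without siRNA 3, and that of HIF1A without siRNA 1. Against NC1 4-6 these 3 genes differed by 0.22, -0.07 and -0.21 with the mimic. When NC1 was 1 group, none of the reported targets was higher and 1 was lower (RHOC, adjusted p = 0.0496). Of 28 genes of RNA interference, 1 was higher and 2 lower, and 2 were higher and none lower in NC1 4-6. TSN, a subunit of the nuclease that clears passenger strands, rose by 0.61 beside 0.63. The decapping factor DCP1A and AGO2, the Argonaute that cuts its targets, fell by 0.50 and 0.35 beside -0.03 and -0.09. These last 2 calls were lost without siRNA 1 or 2, NC1 4 or 5, or any mimic array (adjusted p up to 0.174 and 0.204), and that of AGO2 also without NC1 2 or siRNA 3.

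Of 32 measured genes of glycolysis and hypoxia 10 were higher and 1 lower, with a median of 0.16, and 14 were higher in NC1 4-6 and none lower. NDRG1, a hypoxia-induced gene, rose by 0.87 ± 0.12 (SE, adjusted p = 0.000309) beside 0.42. The glucose transporter SLC2A1 rose by 0.59 beside 0.88, and the glycolytic enzyme ENO1 by 0.67 beside 0.87. Of 24 genes of cholesterol and fatty acid synthesis 5 were higher and none lower, with a median of 0.09, beside 17 higher and none lower in NC1 4-6. HMGCS1 and MSMO1, enzymes of cholesterol synthesis, rose by 0.85 and 0.67 beside 1.18 and 1.07. With NC1 as 1 group 1 glycolysis and hypoxia gene and no cholesterol gene was called.

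Of 27 measured targets of NRF2, the factor that answers oxidative stress, 5 were higher and 3 lower with the mimic than with the siRNA, with a median of -0.01. In NC1 4-6, 1 was higher and 7 were lower (median -0.18 between the control parts). Against NC1 4-6 the mimic raised 12 and lowered none, where 1.59% of all genes were higher and 1.89% lower. The difference of differences was called higher in 6 and lower in none (median 0.28), where 0.896% of all genes were higher and 1.19% lower. The mean level of the 27 genes was 7.42 with the mimic, 7.35 with the siRNA, 7.27 in NC1 1-3 and 7.02 in NC1 4-6. As NC1 4-6 was lowest, these counts rest on that choice of control. NMRAL2P, a transcribed pseudogene induced by NRF2, measured 7.27, 7.05 and 6.85 with the mimic, 6.08, 6.16 and 6.09 with the siRNA, 6.42, 6.26 and 5.82 in NC1 1-3 and 5.81, 5.59 and 5.35 in NC1 4-6. The mimic arrays lay above all others. Its difference was 0.94 ± 0.15 (SE, adjusted p = 0.00115) beside a control difference of -0.58, and the difference of differences was 1.52 (adjusted p = 0.000573). GCLC, which makes glutathione, rose by 0.61 beside 0.20, and the reductase AKR1B10 fell by 0.92 beside -1.02.

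Cytoskeletal genes gave 3 higher and 4 lower members of 45 with the mimic, with a median of -0.01, and 7 higher and 1 lower in NC1 4-6. TPM4, a tropomyosin that stabilises actin filaments, measured 8.62, 8.53 and 8.63 with the mimic, 9.50, 9.47 and 9.45 with the siRNA, 9.04, 8.88 and 8.92 in NC1 4-6 and 9.16 ± 0.14 (mean ± SD, n = 3) in NC1 1-3. The mimic arrays lay below and the siRNA arrays above every control array. The difference was -0.88 ± 0.09 (SE, adjusted p = 3.52e-05) beside -0.21, and the difference of differences was -0.67 (adjusted p = 0.0107). A second probe set of TPM4, at a mean level of 7.76, differed by -0.51 between the treatments. MYH9, the heavy chain of non-muscle myosin, fell by 0.56 beside 0.01. When NC1 was 1 group, none of these genes was higher and 3 were lower.

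Of 34 integrins and semaphorins 3 were higher and 2 lower with the mimic, and 7 were higher and 1 lower in NC1 4-6. Besides SEMA3A, the integrin ITGA6 rose by 0.47 beside 0.62. Of 33 genes of epithelial junctions 5 were higher and 1 lower, with 5 higher and none lower in NC1 4-6. DSC2, a desmosomal cadherin, rose by 0.55 beside 0.57, and EMP3, an epithelial membrane protein, by 0.61 beside 0.33. Of 37 EGFR ligands and MAP kinase feedback genes 2 were higher and 5 lower (1 higher and 6 lower in NC1 4-6), with the ligand EREG at 0.43 beside 0.23 and the phosphatase DUSP5 at -0.50 beside -0.30. Of 25 Hippo genes, of which 3 were higher and 1 lower in NC1 4-6, 1 was higher with the mimic, the coactivator YAP1 at 0.39 beside 0.28, a call lost without any treated array or without NC1 4 or 5 (adjusted p up to 0.176).

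Of 25 p53 targets 2 were higher and none lower with the mimic, with a median of 0.04, and 1 was higher and 1 lower in NC1 4-6. PLK2, a stress-induced kinase, measured 6.87, 6.97 and 7.09 with the mimic, 6.21, 6.18 and 6.22 with the siRNA, 6.88, 6.80 and 6.55 in NC1 1-3 and 7.02, 6.85 and 6.64 in NC1 4-6. The siRNA arrays stood below all others and the mimic arrays within or just above the controls. MDM2, the ubiquitin ligase of p53, had a difference of 0.79 ± 0.14 (SE, adjusted p = 0.00323) beside a control difference of 0.16, and PLK2 one of 0.77 beside 0.10. Both calls held with NC1 as 1 group. Of 32 MYC targets and ribosome biogenesis genes 1 was higher, NIP7 (0.63 beside 0.40), and 1 lower, MYC itself (-0.50 beside -0.44), while 8 were higher and 2 lower in NC1 4-6. Of 23 genes of the interleukin-1 family 1 was higher, IL18 (0.62 beside 0.59), a call lost without any treated array (adjusted p up to 0.116), and 2 were higher and 3 lower in NC1 4-6.

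Among the largest changes outside these lists, TMEM120B, a membrane protein of the nuclear envelope, measured 6.55, 6.59 and 6.41 with the mimic and 7.36, 8.27 and 7.45 with the siRNA. The siRNA arrays lay above all others, with siRNA 2 the highest. Its difference was -1.18 ± 0.18 (SE, adjusted p = 0.000726) beside a control difference of 0.07, but a second probe set of the gene, at a lower mean level of 4.25, differed by -0.12. CLNS1A, a subunit of the complex that methylates splicing proteins, fell by 0.75 beside 0.23, and its difference of differences was -0.98 (adjusted p = 0.0133). CTNNAL1, a relative of alpha-catenin, fell by 0.45 beside 0.49, a call lost without any treated array (adjusted p up to 0.160).

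Epithelial markers were high on the arrays of both treatments. Of 11 defining markers of airway epithelium, which had a median level of 7.75, 1 differed, CFTR, and the mean of the 11 was 7.61 to 7.70 on the siRNA arrays and 7.61 to 7.72 on the mimic arrays. Of 27 secretory airway markers 4 were lower with the mimic (SLPI, PIGR, MUC13 and MUC20) and 9 in NC1 4-6. The MUC13 call was lost without any siRNA array, NC1 5, or mimic 2 or 3, and that of MUC20 without siRNA 2 or 3, NC1 2, 4, 5 or 6, or mimic 1 or 2 (adjusted p up to 0.155 and 0.233). Their mean was 5.45 to 5.52 with the mimic, 5.59 to 5.62 with the siRNA, 5.78 to 5.93 in NC1 1-3 and 5.44 to 5.55 in NC1 4-6. Secretory markers were thus lowest with the mimic and in NC1 4-6, as was DEFB1. The siRNA arrays lay below NC1 1-3 for the secretory mean, whereas DEFB1 was 0.40 higher with the siRNA than in NC1 1-3. SLPI belongs to both the secretory markers and the defence genes. The part of secretory markers in the falls of defence genes was not tested. None of 18 ciliated, 16 leukocyte or 12 endothelial markers was called in limma (1, 0 and 0 at an unadjusted p under 0.05). Their means were 4.33 to 4.41, 4.85 to 4.97 and 4.36 to 4.43 with the mimic, and 4.40 to 4.44, 4.88 to 5.01 and 4.35 to 4.42 with the siRNA, below the array medians. Of 17 basal and 23 mesenchymal markers 1 each was higher, DSC3 (0.61 beside 0.35) and VIM (0.31 beside 0.66). The VIM call was lost without any siRNA array or without mimic 2 or 3 (adjusted p up to 0.142).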

How the data were processed

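RNA of Calu-3 cells was measured on 12 arrays: 6 NC1, 3 SIN3A siRNA and 3 miR-138 mimic, grouped by title. The authors deposited log2 values per probe set, for which the submitters' processing notes name RMA and Partek 6.3 without saying which step each did. They were used as deposited, between 1.43 and 13.2. No scanner data were used and dim probe sets were kept, so low levels include background and small changes there are compressed.

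Of 33297 probe sets, 19460 had 1 gene symbol, 1754 several and 12083 none. The brightest single-symbol probe set over all arrays stood for each of 18417 genes, of which 769 had several. Group means (NC1 1-3, NC1 4-6, siRNA and mimic) were fitted to all 12 arrays in limma 3.58.1 under R 4.3.3, with 8 residual degrees of freedom, moderated variances and Benjamini-Hochberg adjustment over all genes. A call was an adjusted p under 0.05. The number of arrays limits precision: the median SE was 0.107 for the direct difference and 0.152 for the difference of differences. The fit was tested on simulated data.

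The rule named SIN3A and CFTR, the 12 largest called rises and 12 falls with separated arrays, the 10 largest differences of differences in each direction among genes also called directly, and from each list at most 4 members, those of lowest adjusted p. CXCL8, ISG15, IFI6, IFI27, IFNB1 and IFNL1 were added after their values were seen. The comparison, the 35 lists (1185 genes, 1101 measured) and the split of NC1 were chosen with earlier results of these data known. Alternatives were another normalization, a filter on dim genes, mean probe sets, a trended prior, other uses of NC1, a replicate block, a minimum difference and leaving out arrays. Replicate numbers did not pair the treatments (r 0.00596 to 0.0287 between same-numbered arrays).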

Additional observations from a re-analysis of the deposited data

Results flagged for a closer look

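In 8 of 159 named genes, 1 NC1 array stood apart from the other 5 by Dixon's criterion over the 6 NC1 arrays, and chance alone marks about 1 group in 20. NC1 3 was the array in 5 of them. It was low for MDM2 (6.57, others 7.05 to 7.26), ZMAT3 (4.69, others 4.94 to 5.08) and YAP1 (6.23, others 6.61 to 6.80), and high for SPRR1A (6.91, others 6.25 to 6.44) and LAPTM5 (5.25, others 4.77 to 4.87). NC1 1 was high for RHOC (6.71, others 6.35 to 6.42) and SCNN1A (5.94, others 5.20 to 5.47), and NC1 6 was low for AGO2 (5.85, others 6.10 to 6.13). NC1 arrays do not enter the difference between mimic and siRNA, only its estimated variance.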

How the results depend on the processing

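The direct counts were 125 higher and 164 lower with NC1 as 1 mean, 317 and 184 with a minimum difference of 0.5, 959 and 735 without NC1 3 and 6 together, and 329 to 803 and 252 to 621 with single arrays left out. They were 851 and 623 with the 6 treated arrays alone. The control difference ran from 711 to 1612 higher and 351 to 770 lower, and the difference of differences from 108 to 226 and 92 to 403. The small SIN3A difference ran from -0.036 to 0.13. NC1 as 1 mean ended 78 named calls. With the control parts exchanged, an alternative chosen after seeing the data like that without NC1 3 and 6, the difference of differences was called in 1588 higher and 925 lower genes. Its sign turned for SIN3A (0.63), RSAD2 (-0.045), IFIT1 (-0.036), MX1 (-0.049), OAS2 (-0.043), IFIT2 (-0.32), OAS1 (-0.77), IL6 (-1.81), SAA1 (-5.83), SAA2 (-3.55), PI3 (-3.17), SPINK1 (-3.27), GBP2 (-2.19), SLPI (-2.62), LYPLA1 (0.11), PBK (0.10), PCNA (0.26), PRR11 (0.27) and CTNNAL1 (0.040). Differences near 0 turned too. With single arrays left out the difference of differences ran from -0.057 to 0.10 for STC1, -0.12 to 0.15 for PI3 and -0.057 to 0.25 for GBP2, and it was -0.024 for STC1 without NC1 3 and 6. The control difference ran from -0.016 to 0.14 for TMEM120B, with -0.012 after a second quantile normalization, and from -0.18 to 0.051 for CDKN3. With the replicate block the direct counts were 486 higher and 344 lower, although replicate numbers did not pair the arrays. A description of seed matches was not run, as no transcript sequences were used here.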

Other observations

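Measured against separate parts of the control, the mimic and the siRNA shared some changes. The mimic against NC1 4-6 and the siRNA against NC1 1-3 have no array in common. Both raised 51 genes and both lowered 56, while the mimic raised and the siRNA lowered 41 and the reverse held for 4. Of all 18417 genes, the mimic raised 293 (1.59%) and lowered 349 (1.89%), and the siRNA raised 674 (3.66%) and lowered 376 (2.04%). Whether the shared counts exceed what these totals alone would give was not tested. They also rest on which NC1 arrays belong to which treatment, which the labels do not say. EMP2, an epithelial membrane protein, differed by -1.11 from NC1 4-6 with the mimic and by -1.06 from NC1 1-3 with the siRNA. MOB1A, an activator of the Hippo kinases, differed by -1.15 and -1.08. Between the treatments EMP2 differed by 0.34 ± 0.08 (SE, adjusted p = 0.0187, control difference 0.40), a call lost without siRNA 1 or 3 or mimic 1 or 3, and MOB1A by 0.40 ± 0.12 (SE, adjusted p = 0.0587, control difference 0.48).

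Of 13837 probe sets without a single gene symbol, tested apart from the genes, 309 were higher and 218 lower with the mimic than with the siRNA, beside 497 higher and 310 lower in NC1 4-6 against NC1 1-3. The difference of differences was called higher in 14 and lower in 4.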
